A study of Homo sapiens with 8 samples.

Results

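The miR-106b-25 and miR-106a-363 clusters are paralogs of the miR-17-92 cluster, and 10 of their mature miRNAs were followed here across small RNA libraries of H1299 cells. The 10 members were taken by name and not by a cut-off on their values, but with earlier results of these data known. Of these, 6 are arms of the miR-106b-25 cluster (hsa-miR-106b-5p, hsa-miR-106b-3p, hsa-miR-93-5p, hsa-miR-93-3p, hsa-miR-25-3p and hsa-miR-25-5p). The other 4 are miRNAs of the miR-106a-363 cluster (hsa-miR-106a-5p, hsa-miR-18b-5p, hsa-miR-20b-5p and hsa-miR-363-3p). The human prefix is left out from here on. All 10 were found among the 945 miRNAs of the deposited tables. H1299, an established line of non-small cell lung carcinoma taken from a lymph node, makes no p53. The EV cells carried an empty vector and were obtained from another laboratory. The R273H cells stably expressed the R273H mutant of p53 from a CMV promoter and were propagated from G418-resistant colonies, so clonal differences and the mutant protein cannot be told apart. Each line was left untreated or was given etoposide, a topoisomerase II inhibitor that breaks DNA, for 24 h before harvest. The labels contradict each other on the dose, which reads 10 µM in the treatment protocol but 10 mM in the growth protocol. The 4 groups (EV untreated, R273H untreated, EV etoposide and R273H etoposide) held 2 libraries each.

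A library held 234545 to 579367 reads on annotated features, of which 213007 to 536991 were on miRNAs. miR-21-5p made up 30.6% to 44.5% of all miRNA reads. The libraries of a group were separate, since their miRNA reads differed far beyond sampling noise (chi-square divided by its degrees of freedom, 32.3 to 70.4). The study calls the untreated libraries of each line biological replicates. The labels do not say whether the libraries of a group came from separate cultures, so the p-values measure the spread between these libraries only. Of 8 miRNAs typical of blood, liver, muscle or neurons, 6 had any read. Summed over these 6, an EV library had 5 to 25 reads and an R273H library 1 to 25.

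A miRNA is cut from a hairpin with a 5′ arm and a 3′ arm, and one arm (the guide strand) usually stays in the silencing complex while the other (the passenger strand) is degraded. A guide finds its target messages mainly through its seed, bases 2 to 8. The miR-17-92 cluster and both paralogous clusters are well known as growth-promoting miRNAs in many tumours, and miR-106b and miR-93 are known to target the cell cycle inhibitor CDKN1A (p21). The host of the miR-106b-25 cluster, MCM7, encodes a subunit of the replicative DNA helicase.

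The hairpins MIR106B (chr7:99691616-99691697), MIR93 (chr7:99691391-99691470) and MIR25 (chr7:99691183-99691266) lie on the minus strand of GRCh37 in intron 13 of MCM7 (chr7:99690351-99699020). The hairpins MIR106A (chrX:133304228-133304308), MIR18B (chrX:133304064-133304146), MIR20B (chrX:133303839-133303907) and MIR363 (chrX:133303408-133303482) lie on the minus strand of the X chromosome, within an annotated long non-coding RNA. The mature sequences, from RefSeq, are given by seed because shared seeds decide which members can be added up and which are hard to tell apart by sequencing. Capitals mark the seed. The first set holds the members with the seed of miR-17, with the chromosome 13 paralogs miR-17-5p and miR-20a-5p for comparison:
miR-106b-5p: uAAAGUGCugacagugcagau
miR-93-5p: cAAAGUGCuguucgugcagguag
miR-106a-5p: aAAAGUGCuuacagugcagguag
miR-20b-5p: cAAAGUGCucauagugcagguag
miR-17-5p: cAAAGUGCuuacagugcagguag
miR-20a-5p: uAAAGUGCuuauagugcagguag

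The next 5 sequences carry the miR-18 seed or the miR-25/92 seed, again with the chromosome 13 paralogs miR-18a-5p and miR-92a-3p for comparison:
miR-18b-5p: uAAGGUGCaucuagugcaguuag
miR-18a-5p: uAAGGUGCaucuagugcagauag
miR-25-3p: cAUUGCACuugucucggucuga
miR-363-3p: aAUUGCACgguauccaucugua
miR-92a-3p: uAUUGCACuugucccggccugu

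The passenger arms of the MCM7 cluster have seeds of their own and share none with another member:
miR-106b-3p: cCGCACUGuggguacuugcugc
miR-93-3p: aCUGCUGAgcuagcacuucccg
miR-25-5p: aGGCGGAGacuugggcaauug

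Counted from 1 at the 5′ end, miR-106a-5p differed from miR-17-5p by 1 substitution (A1C) over 23 bases, and miR-18b-5p from miR-18a-5p also by 1 (U20A). miR-20b-5p differed from miR-20a-5p by 2 (C1U and C10U). By contrast, miR-106b-5p and miR-93-5p differed at 5 of 21 positions outside their shared seed. Small numbers of miR-106a-5p and miR-18b-5p reads beside an abundant paralog therefore rest on 1 base, and how reads matching both were assigned is not given in the sources used here.

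The MCM7 cluster was abundant in H1299 cells and the X cluster was barely expressed. All members are 21 to 23 bases long, so their RPM (reads per 1000000 miRNA reads of the library) was used without a length correction. How evenly adapter ligation and amplification captured different miRNAs was not tested. Ranks, arm ratios and seed shares therefore compare reads and not amounts in the cell. Summed over 6 arms, the MCM7 cluster took 2.04% ± 0.077 (SD, n = 2) of the miRNA reads in untreated EV cells and 2.69% ± 0.30 in untreated R273H cells. The 4 members of the X cluster together took 0.0026% ± 0.0008 and 0.0095% ± 0.0057. For comparison, the 12 arms of miR-17-92 took 3.57% ± 0.26 and 6.12% ± 0.83.

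Of the MCM7 members, the guide miR-106b-5p stood 14th among all 945 miRNAs by its mean level. Its RPM values were 9613 and 10844 in untreated EV cells, 12005 and 15994 in untreated R273H cells, 14075 and 12991 in etoposide-treated EV cells, and 22426 and 21866 in etoposide-treated R273H cells. Both libraries of R273H cells lay above both libraries of EV cells without the drug, and again with it. The guide miR-93-5p ranked 17th, with 8689 and 8622, 11369 and 11541, 11784 and 9944, and 16474 and 17503 RPM in the same order. It kept below miR-106b-5p in each of the 8 libraries, taking 41.9% to 48.6% of the reads of the pair. The guide miR-25-3p ranked 52nd and had 1048 and 861, 899 and 1072, 1883 and 1297, and 1620.3 and 2047 RPM in that order. Untreated libraries of both lines overlapped for miR-25-3p, and in RPM each etoposide-treated library stood above each untreated one.

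For each read of its passenger arm, miR-106b-5p had 30.1 to 139 reads in a library and miR-93-5p 30.2 to 62.6. miR-93-3p ranged from 171 to 570.4 RPM and miR-106b-3p from 162 to 456, so the order of these 2 (ranks 91 and 94) did not exceed their spread. miR-25-5p ranged from 6.64 to 48.7 RPM and rested on 3 to 17 reads in a library. Within the MCM7 cluster, miR-106b-5p gave 48.4% to 55.2% of the reads, miR-93-5p 39.8% to 46.0% and miR-25-3p 3.63% to 6.58%. Each passenger arm stayed between 0.027% and 1.72%.

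miR-106a-5p had the most reads of the X cluster over the 8 libraries (140) and ranked 207th among all miRNAs. It gave 59.1% to 90.2% of the cluster's reads in R273H libraries, but 6.25% to 58.8% in EV libraries. It had 10 and 1 reads in untreated EV cells, 55 and 13 in untreated R273H cells, 6 and 1 in etoposide-treated EV cells, and 44 and 10 in etoposide-treated R273H cells. In each of the 4 groups the library labelled replicate 1 held more of its reads than the one labelled replicate 2. miR-20b-5p had 2 to 7 reads in a library and miR-18b-5p 1 to 5. In treated EV cells the 7 reads of miR-106a-5p were fewer than the 11 of miR-20b-5p and the 9 of miR-363-3p. miR-363-3p had 1 and 0 reads in untreated EV cells, 3 and 6 in etoposide-treated EV cells, and none in any of the 4 R273H libraries. A count of 0 in the R273H libraries still allows up to 5.92 to 8.60 RPM, depending on the library.

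**Figure D1:**
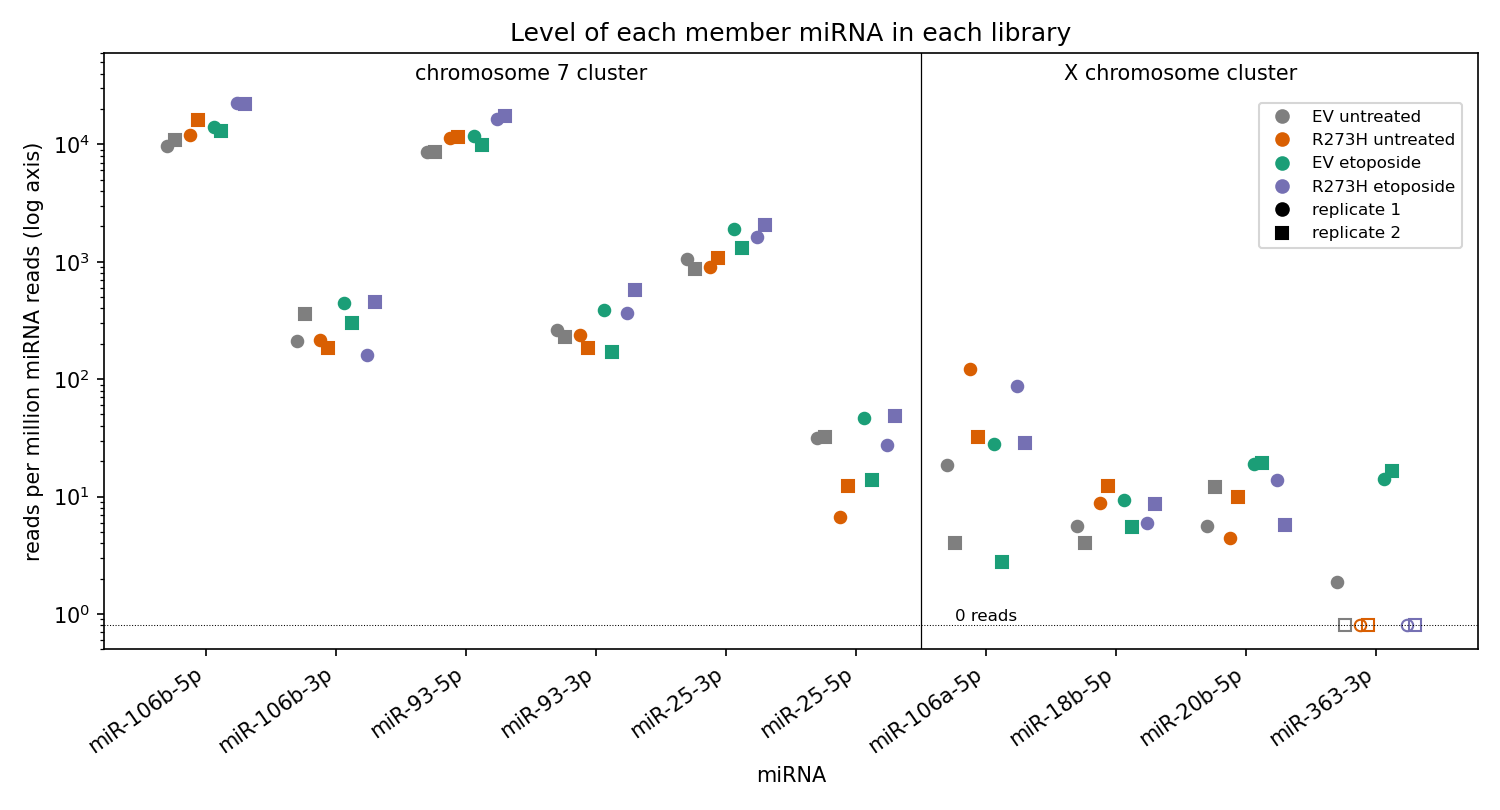
RPM (log axis) of the 10 members in each of the 8 libraries, coloured by group, with circles for replicate 1 and squares for replicate 2 and open symbols on the dotted line for 0 reads. The guides miR-106b-5p and miR-93-5p lie between 8622 and 22426, while the 4 members of the X cluster lie at 122 or less.

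Other arms of the X cluster hardly appeared. Of 6 listed, miR-20b-3p had 2 reads and miR-19b-2-5p 3 reads over the 8 libraries, and none of the 6 reached the test. miR-19b-3p and miR-92a-3p, which the X cluster also encodes, have copies of the same mature sequence on chromosome 13 and were counted with miR-17-92 here.

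In the comparison of untreated R273H with EV cells, where the mutant and other differences between the lines cannot be told apart, miR-106a-5p was the only member called. Its normalized counts were 6.92 and 1.59 in EV and 56.4 and 11.6 in R273H cells. Both R273H libraries were above both EV libraries, but the R273H libraries were themselves far apart. The log2 fold change was 2.57 ± 0.68 (SE, n = 2 per group, limma adjusted p = 0.0119) on the log2(normalized count + 1) scale. Among all 304 miRNAs tested, 20.4% were called at an adjusted p under 0.05, and 1 of the 9 members tested was. miR-363-3p fell under the minimum for the test. This call was lost (lowest log2 fold change 1.47, adjusted p = 0.398) when R273H replicate 1 was left out. It was also lost without R273H replicate 2 (log2 fold change 3.66, adjusted p = 0.122) and without EV replicate 2 (1.76, adjusted p = 0.145).

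None of the 6 MCM7 arms was called in this comparison. Their median log2 fold change was 0.00, beside 0.10 over all miRNAs tested. miR-106b-5p had normalized counts of 3574 and 4318 in EV and 5565 and 5782 in R273H cells. The groups did not overlap, with a log2 fold change of 0.53 ± 0.26 (adjusted p = 0.16). miR-93-5p read 3230.3 and 3433 in EV and 5271 and 4172 in R273H cells, again without overlap (0.49 ± 0.26, adjusted p = 0.194). miR-25-3p, the guide of the last hairpin of the cluster, overlapped between the lines, with 390 and 343 normalized counts in EV, 417 and 388 in R273H cells and a log2 fold change of 0.14 ± 0.30.

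The passenger arm miR-25-5p was lower in both R273H libraries, at 3.08 and 4.44 normalized counts against 11.8 and 12.8 in EV. Its log2 fold change of -1.49 ± 0.56 had an unadjusted p of 0.0156 and an adjusted p of 0.0668 in limma. The criteria of the study were an unadjusted p under 0.05 with a change of at least 2-fold. The study took its p-values from DESeq, while here and below the criteria are applied to the tests used here. By them 27.3% of the miRNAs passed in limma, and among the members miR-25-5p and miR-106a-5p did. The 3 and 5 reads of miR-25-5p in the R273H libraries set the precision of that value. miR-106b-3p (log2 fold change -0.38 ± 0.39) and miR-93-3p (-0.14 ± 0.38) overlapped between the lines.

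**Figure D2:**
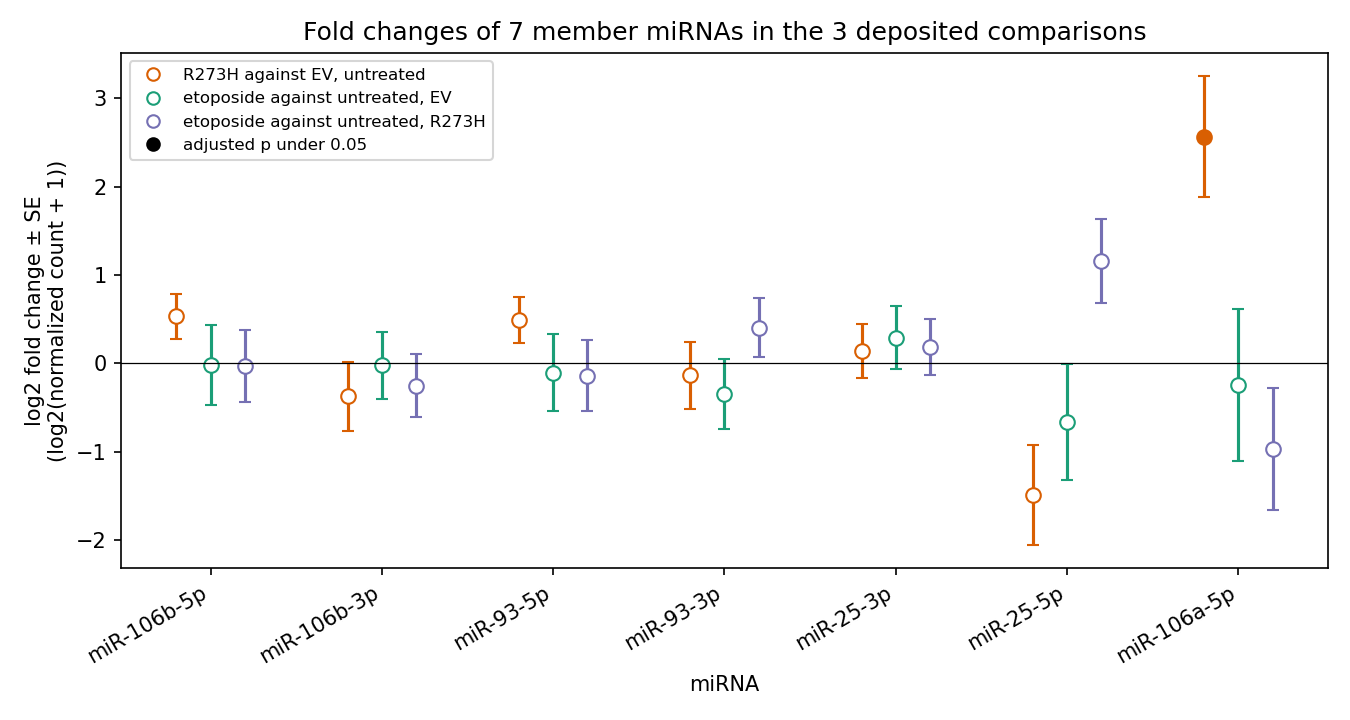
Log2 fold change (± SE from limma, 2 libraries per group) of 7 members in the 3 deposited comparisons, with filled points for an adjusted p under 0.05. The single filled point is miR-106a-5p in untreated R273H against EV cells (2.57), and miR-25-5p lies at -1.49, -0.67 and 1.16 in the 3 comparisons.

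Members with so few reads were also given as ratios of pooled reads. Pooled over the 4 libraries of each line, miR-106a-5p had 18 reads in EV and 122 in R273H cells, a ratio of 5.39 per miRNA read (exact 95% interval 3.27 to 9.39). For miR-18b-5p the ratio was 1.49 (0.593 to 4.06), from 8 and 15 reads. miR-20b-5p gave 0.701 (0.326 to 1.49), from 17 and 15 reads. The last 2 intervals span 1, so a difference was not detectable at this depth. These intervals cover counting error only and not the spread between libraries.

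The same contrast under etoposide compared separate libraries of both lines. Again miR-106a-5p was the only member called, of 8 tested, with a log2 fold change of 1.99 in the edgeR quasi-likelihood test (adjusted p = 0.0233). Behind it were the 7 EV and 54 R273H reads of the etoposide-treated libraries. In this comparison 22.5% of 334 miRNAs were called, and 25.4% met the criteria of the study. The call did not hold in DESeq2 (2.10 ± 1.42, adjusted p = 0.386), nor without R273H etoposide replicate 1 (0.57, adjusted p = 0.774), without EV etoposide replicate 2 (1.19, adjusted p = 0.35) or without EV untreated replicate 2 (1.98, adjusted p = 0.0696). miR-106b-5p (0.37, adjusted p = 0.546) and miR-93-5p (0.31, adjusted p = 0.619) were not called. Scaled to equal upper quartiles these became 0.69 and 0.62, still not called, while the median of all miRNAs tested moved from 0.05 to 0.37. miR-106b-3p had a log2 fold change of -0.70 with an unadjusted p of 0.049 (adjusted p = 0.154). Among treated libraries miR-363-3p had reads in EV cells alone. Its mean in treated EV cells (15.3 RPM) was 2.11 times the level that 3 reads per library, taken as the floor, would give in R273H cells (7.26 RPM). Over all 4 libraries of each line that ratio was 1.14. Neither ratio allows for counting error in the few EV reads, so neither is a lower bound on the difference. The 3 reads of EV etoposide replicate 1 are at that floor themselves.

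Etoposide called none of the 8 members tested in EV cells, where 0.676% of 296 miRNAs were called and 6.76% met the criteria of the study. miR-106b-5p read 3329 and 4101 normalized counts before and 2859 and 4631 after the drug, overlapping widely (log2 fold change -0.02 ± 0.45). miR-25-3p read 363.1 and 325 before and 382 and 462 after, without overlap (0.29 ± 0.35, adjusted p = 0.932). The passenger arms miR-93-3p (91.6 and 86.3 to 79.2 and 61.0) and miR-25-5p (10.96 and 12.1 to 9.54 and 4.92) were lower after the drug without overlap, with adjusted p-values of 0.932 for both.

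In R273H cells etoposide again called none of the 9 members tested. Of 341 miRNAs tested, 0% were called by limma, 31 had an unadjusted p under 0.05, and DESeq2 called 1. By the criteria of the study 6.16% passed, among them miR-25-5p. It read 3.99 and 5.90 normalized counts before and 11.5 and 12.6 after the drug, a log2 fold change of 1.16 ± 0.48 (unadjusted p = 0.0306, adjusted p = 0.495). miR-93-3p read 144 and 88.6 before and 152 and 148 after (0.41 ± 0.33, adjusted p = 0.709). The guide miR-25-3p, separated by treatment in RPM, overlapped in normalized counts, with 540 and 515 before and 677 and 530 after (0.18 ± 0.32, adjusted p = 0.929). miR-106a-5p read 73.1 and 15.4 before and 36.3 and 7.42 after, with a log2 fold change of -0.98 ± 0.69 inside overlapping groups. miR-363-3p has no value in this table. The difference between the drug responses of the lines, tested as an interaction in edgeR, was called for 0% of 334 miRNAs. An unadjusted p under 0.05 was reached by 12 of them, and DESeq2 called 0.

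The scale decides how the response of the MCM7 cluster to etoposide reads. As a share of miRNA reads the cluster went from 1.99% and 2.09% to 2.86% and 2.47% in EV cells. In R273H cells it went from 2.47% and 2.90% to 4.11% and 4.25%. On the deposited scale the log2 fold changes of miR-106b-5p were -0.02 in EV and -0.03 in R273H cells. Those of miR-93-5p were -0.10 and -0.14, and those of miR-25-3p 0.29 and 0.18, and none of the 3 guides was called. Scaled to miRNA reads without miR-21-5p, the values of miR-106b-5p became 0.36 and 0.51, but then the median of all miRNAs tested also moved to 0.33 and 0.55. On both scales miR-106b-5p stayed close to that median, which was -0.04 in EV and 0.02 in R273H cells on the deposited scale. The share of miR-21-5p itself was 41.3% in both untreated EV libraries and 33.5% and 44.5% after the drug, and in R273H cells 43.8% and 38.2% before and 37.4% and 30.6% after.

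Between the lines the cluster share was 1.32 times higher in R273H than in EV cells without the drug and 1.57 times higher with it. Both R273H libraries lay above both EV libraries in each case. Leaving out any 1 library gave 1.21 to 1.42 times without the drug and 1.46 to 1.69 times with it. With miR-21-5p left out of the reads the ratios were 1.31 without the drug and 1.45 with it. In edgeR the log2 difference between the drug responses of the lines was 0.025 for miR-106b-5p and -0.009 for miR-93-5p. The larger ratio with the drug was thus not seen for these guides on that scale. The smallest p that exact permutation of 2 against 2 libraries allows is 0.333.

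The seed families show what the members add to the pool of each seed. The 6 expressed miRNAs with the miR-17 seed (AAAGUGC) took 2.15% ± 0.095 of miRNA reads in untreated EV cells and 3.17% ± 0.24 in untreated R273H cells. With etoposide they took 2.72% ± 0.33 in EV and 4.77% ± 0.26 in R273H cells. miR-106b-5p and miR-93-5p supplied 77.9% to 92.5% of these reads in a library. miR-17-5p and miR-20a-5p supplied 7.41% to 21.7%, and miR-106a-5p with miR-20b-5p 0.069% to 0.42%. In R273H cells the part from miR-17-5p and miR-20a-5p was 21.7% and 17.3% without the drug, against 11.9% and 12.1% in EV cells. With the drug it was 14.9% and 20.5%, against 12.3% and 7.41%. Each R273H library thus stood above each EV library in this part.

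**Figure D3:**
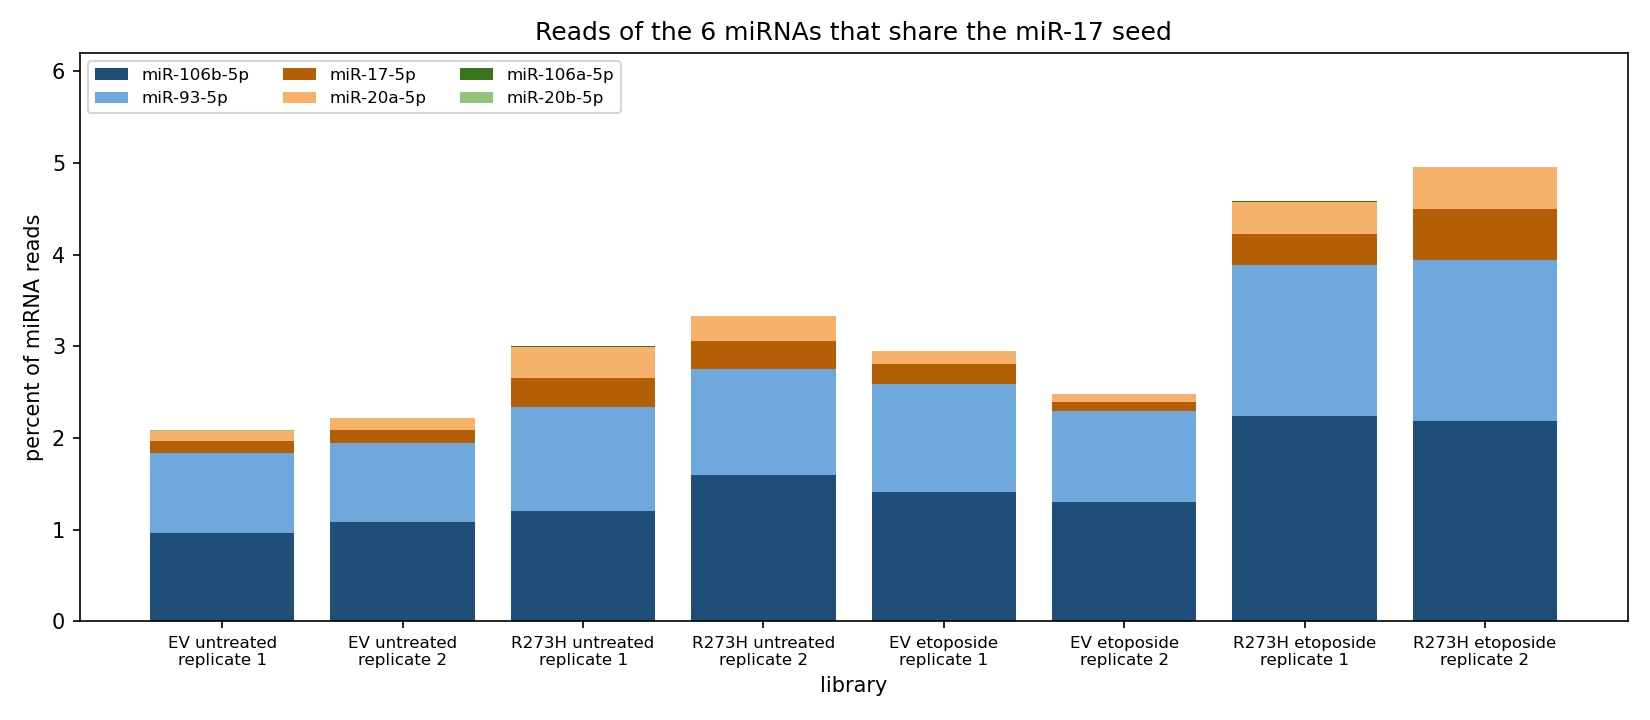
Stacked bars of the percent of miRNA reads taken by each of the 6 miRNAs with the miR-17 seed in each library, without error bars because each bar is 1 library. The blue parts, miR-106b-5p and miR-93-5p, make up 77.9% to 92.5% of each bar, and the green parts of the X cluster are hardly visible.

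Several chromosome 13 paralogs were called between the lines, while no MCM7 arm was. Of the 12 listed miR-17-92 arms 10 were tested, and in untreated R273H against EV cells 5 rose and 0 fell, where 20.4% of all miRNAs were called in either direction. Among them miR-17-5p rose by a log2 fold change of 1.25 ± 0.29 (adjusted p = 0.0052), miR-20a-5p by 1.43 ± 0.31 (adjusted p = 0.00339) and miR-18a-5p by 1.65 ± 0.34 (adjusted p = 0.00287). Limma without the trend called 1 arm, miR-20a-3p, so these 3 lost their call there, and limma with the replicate block called 0. In edgeR and in DESeq2 4 arms were called, miR-20a-3p and these 3. All 5 calls of the main fit were lost when either R273H library was left out. Limma then called 0 of 303 miRNAs without replicate 1 (62 had an unadjusted p under 0.05) and 0 of 302 without replicate 2 (75 had one). Between the treated lines 3 of the 10 rose, miR-17-5p, miR-18a-5p and miR-20a-5p, a share not far above the 22.5% of all miRNAs called. Without EV etoposide replicate 2 or R273H etoposide replicate 2 the call of miR-17-5p was lost and the other 2 held. Etoposide against untreated cells called none of the 10 in either line. The difference between the clusters was not itself tested. miR-92a-3p, which shares the seed of miR-25-3p, was not called (0.27 ± 0.30).

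In the miR-25/92 seed family (AUUGCAC), miR-25-3p supplied 35.0% to 49.6% of the reads and miR-92a-3p 34.2% to 48.8%. Of the reads of this pair, miR-25-3p took 45.1% and 44.98% in untreated EV cells and 43.7% and 41.7% in untreated R273H cells. After etoposide it took 53.1% and 59.2% in EV and 47.1% and 45.2% in R273H cells. The treated libraries were above the untreated ones in each line, and the gap was wider in EV cells, a difference that was not tested. miR-363-3p never exceeded 0.633% of this seed. Seed mates encoded elsewhere, miR-32-5p and miR-92b-3p, supplied 14.5% to 20.5% together and neither was called. In the miR-18 seed family (AAGGUGC), miR-18b-5p supplied 0.037% to 0.165% beside miR-18a-5p.

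Since miR-106a-5p differs from miR-17-5p at the first base alone, its reads were set against those of miR-17-5p in the same library. Its share of the pair was 1.31% and 0.286% in untreated EV cells and 3.70% and 1.03% in untreated R273H cells. With etoposide it was 1.23% and 0.295% in EV and 2.49% and 0.506% in R273H cells. The mean share was 0.80% in EV and 2.36% in R273H cells without the drug, and 0.765% and 1.497% with it. The libraries of both lines overlapped with and without the drug. In every group the library labelled replicate 1 had the higher share.

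**Figure D4:**
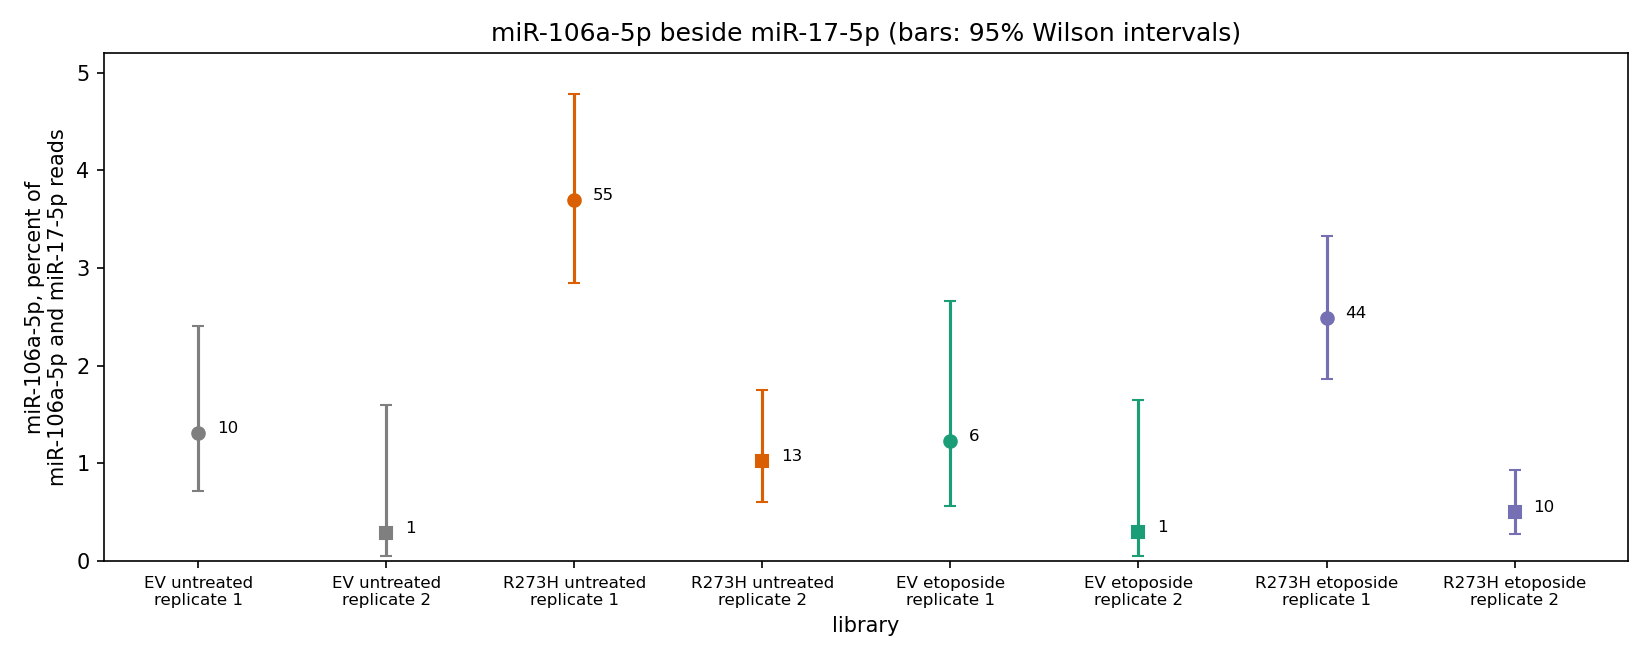
Percent of miR-106a-5p in the summed reads of miR-106a-5p and miR-17-5p for each library, with 95% Wilson intervals and the number of miR-106a-5p reads beside each point. Shares range from 0.286% to 3.70%, and the replicate 1 library is above the replicate 2 library in each group.

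Arm use needs no scaling between libraries, because both arms come from the same hairpin. The 3p arm gave 0.716% to 3.22% of miR-106b reads, and 1.57% to 3.20% of miR-93 reads. In miR-25 the 3p arm is the guide and gave 96.4% to 99.3%. The passenger share of miR-106b was lower in R273H cells. It was 2.14% and 3.22% in untreated EV and 1.76% and 1.14% in untreated R273H cells, and 3.04% and 2.26% in EV and 0.716% and 2.04% in R273H cells with the drug. Each of the 4 EV libraries was above each of the 4 R273H libraries. The mean difference was -1.25 percentage points (2.67% in EV, 1.41% in R273H), and the two-sided exact permutation test within treatments gave p = 0.0556, the smallest it can give with 36 relabellings. Adjusted over the 3 hairpins it was 0.167. No outcome of this design could fall under 0.05, so the test cannot decide on the difference. miR-93 (-0.37 points, exact permutation p = 0.444) and the 3p share of miR-25 (1.03 points, exact permutation p = 0.222) overlapped between the lines over all 8 libraries. Without the drug both separated. The 3p share of miR-93 was then 2.95% and 2.58% in EV and 2.06% and 1.57% in R273H cells. That of miR-25 was 97.1% and 96.4% in EV and 99.3% and 98.9% in R273H cells. With the drug both overlapped.

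**Figure D5:**
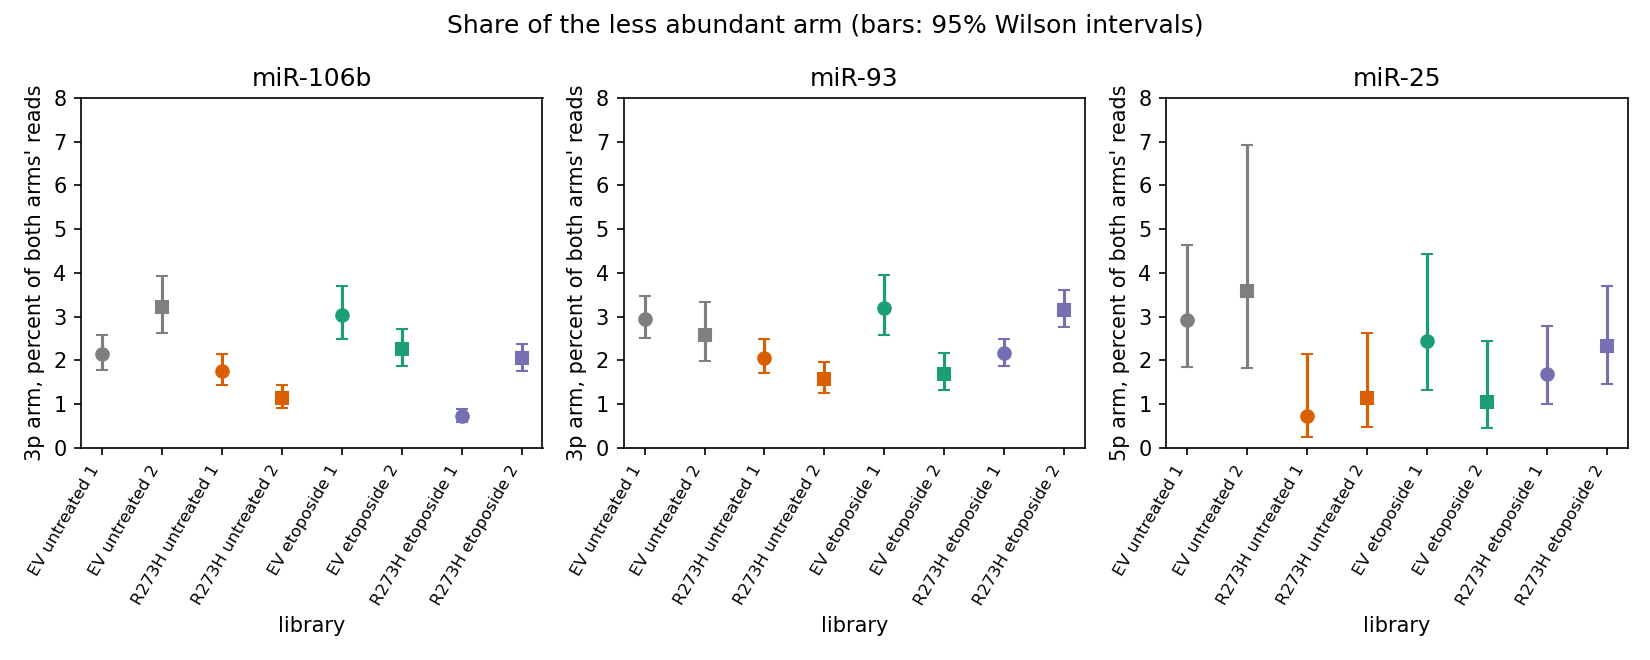
Percent of both arms' reads taken by the passenger arm of miR-106b (3p), miR-93 (3p) and miR-25 (5p) in each library, with 95% Wilson intervals. For miR-106b the EV libraries lie at 2.14% to 3.22% and the R273H libraries at 0.716% to 2.04%.

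The miRNAs whose levels most resembled those of chosen members over the 8 libraries were found among 126 miRNAs with a mean of at least 50 reads, as Pearson's r of log2(RPM + 1). The points share depth and the share of miR-21-5p, so the values are a description. miR-93-5p was nearest to miR-34c-5p (r = 0.937), miR-16-5p (0.936) and miR-324-5p (0.934) outside the members, while its r with miR-106b-5p of the same intron was 0.956. miR-25-3p was nearest to miR-660-5p (0.962), miR-503-5p (0.943) and miR-1180-3p (0.931), all above its r of 0.733 with miR-106b-5p. miR-106a-5p was nearest to miR-18a-5p (0.828), miR-29c-3p (0.817) and miR-29b-3p (0.766).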

How the data were processed

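Small RNA libraries were sequenced on an Ion PGM instrument. Per the labels and the methods, reads of 17 to 35 bases were aligned with SHRiMP to miRBase 20 and with Novoalign to GRCh37/hg19, counted per feature, and divided by a DESeq size factor in each of 3 separate tables. The deposited signal is therefore a normalized read count. The value of 1 read was recovered in each library from its low values, and all values (100%) then lay within 0.01 reads of a whole number. Rounded to whole reads, the libraries held in more than 1 table differed between tables for 0 features. The deposited tables of the authors' own fold changes and p-values were not used.

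Tests used limma 3.58.1 (intensity trend) in R 4.3.3 within each table, on log2(normalized count + 1) of the miRNAs whose mean was at least 3, with Benjamini-Hochberg adjustment. The pseudocount understates the changes of low miRNAs. No table holds both etoposide groups, so R273H against EV under etoposide and the interaction were tested on recovered reads with edgeR 4.0.16 (quasi-likelihood, TMM, all 8 libraries). DESeq2 1.42.0 gave the standard error there. The steps were also run on simulated data with known changes, and no result given here rests on that run. The members, the lists (miR-17-92 arms, other X arms, seed mates, miRNAs of other cell types) and the miRNAs named by likeness were chosen with earlier results of these data known. Fitted values are omitted for members with at most 7 reads in a library. Sequences are from RefSeq and positions from GENCODE 44 on GRCh37. Wilson and exact 95% intervals and the floor of 3 reads cover counting error only. scipy 1.17.1 gave exact tests.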

Additional observations from a re-analysis of the deposited data

Results flagged for a closer look

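Both values here were set apart because, in normalized counts, the libraries moved in opposite directions in the 2 lines after etoposide. On that scale miR-25-5p was lower in both treated EV libraries and higher in both treated R273H libraries than in the untreated ones. The difference of log2 responses was 1.926 (R273H minus EV, edgeR unadjusted p = 0.0452, adjusted p = 1), on 3 to 17 reads per library. miR-93-3p did the same, with a difference of 0.744 (unadjusted p = 0.137, adjusted p = 1). Neither passed the test of the difference. The same libraries set these 2 apart and gave the unadjusted p-values, which are therefore no separate support. On the scale of miRNA reads without miR-21-5p, miR-93-3p was not lower in EV cells (log2 fold change 0.02). In RPM the treated and untreated EV libraries overlapped for both arms.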

How the results depend on the processing

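With 2 libraries per group and 1 to 17 reads in many libraries, depth limits miR-25-5p and the X cluster, and p-values rest on the spread pooled over miRNAs. Replicate numbers did not pair the libraries (correlations of deviations -0.027, 0.037 and -0.083). With the replicate block in limma, the called members in untreated R273H against EV cells went from 1 to 0 (miR-106a-5p, 2.57, adjusted p = 0.0617) and all called miRNAs from 62 to 0. The block changed no other call of a member.

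In that comparison 0 members were called on miRNA reads without miR-21-5p (miR-106a-5p 2.48, adjusted p = 0.0978). Limma without the trend called miR-25-5p (-1.49, adjusted p = 0.0446) in place of miR-106a-5p (adjusted p = 0.0712), and 39 miRNAs in all. DESeq2 called 34. The value of miR-25-3p was -0.064 in edgeR. Leaving out a library left 0 to 1 members called.

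Under etoposide, R273H against EV had 2 called members without a filter (miR-363-3p was added), 0 with a mean of at least 10 (miR-106a-5p 2.04, adjusted p = 0.0546), 0 in DESeq2, and 0 to 1 with a library left out. miR-25-3p was 0.045 without a filter and 0.199 when upper quartiles were made equal, where the median of all miRNAs moved from 0.05 to 0.37.

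For etoposide against untreated cells the cause was not tested. On miRNA reads without miR-21-5p, EV values were 0.36 for miR-106b-5p, 0.35 for miR-106b-3p, 0.27 for miR-93-5p, 0.023 for miR-93-3p and 0.063 for miR-106a-5p, and R273H values 0.51, 0.28 and 0.41 for the first 3. DESeq2 gave 0.026 for miR-106b-5p in EV. In EV, leave-one-out ranges were -0.37 to 0.33 for miR-106b-5p, -0.47 to 0.42 for miR-106b-3p, -0.39 to 0.18 for miR-93-5p and -1.03 to 0.64 for miR-106a-5p. In R273H they were -0.39 to 0.33, -0.65 to 0.14, -0.44 to 0.16 and -2.06 to 0.12.

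R273H against EV ranges that crossed 0 were, untreated, -0.81 to 0.058 for miR-106b-3p and -0.50 to 0.23 for miR-93-3p, and under etoposide -0.34 to 0.70 for miR-25-5p and -0.21 to 0.011 for miR-25-3p. The arm difference of miR-106b kept its direction (-1.58 to -0.92 points with a library left out). That of miR-93 ranged from -0.75 to 0.0073 points. In untreated libraries alone it was -0.95, and miR-25 gave 2.33. In etoposide libraries alone miR-93 gave 0.21 and miR-25 -0.26. Of the other fold changes of members, 231 under other settings and 129 with a library left out kept direction and call. Ratios of the MCM7 share with libraries or miR-21-5p left out were computed after the data were seen.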
